A study of Mus musculus with 12 samples.

Results

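Tumour regulatory T cells (Treg) from VERT-X reporter mice were compared with those from FoxP3-EGFP reporter mice, both taken from subcutaneous MC38 tumours. The comparison took every array of VERT-X tumour Treg, which is 6, against every array of FoxP3-EGFP tumour Treg, which is 3, so 9 of the 12 arrays of the series entered it. The tumour line, MC38, comes from a colon carcinoma of C57BL/6 mice. Both reporter strains are C57BL/6, and tumours were pooled at 2 weeks before they were digested and sorted.

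VERT-X mice report Il10 expression through EGFP, and their Treg were sorted as an IL10+ and an IL10- fraction, with 3 arrays each. FoxP3-EGFP mice report Foxp3 through EGFP, and their tumour Treg were taken as a whole, with 3 arrays. A gate common to both strains kept CD45+ cells with low CD11b that carried CD3 and CD4. Treg of VERT-X mice were then defined by CD25 (encoded by Il2ra) and CD120b (TNF receptor 2, encoded by Tnfrsf1b), and Treg of FoxP3-EGFP mice by EGFP. Reporter strain and sort gate therefore change together, and neither can be told apart from the other here. The labels give 3 experiments per population and do not say whether the fractions that share a replicate number came from the same tumours. Treg from spleens of FoxP3-EGFP mice without tumours, 3 arrays, were used only to place single genes.

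Treg are CD4 T cells that restrain immune responses. The transcription factor Foxp3 defines them, and most carry CD25, the alpha chain of the interleukin-2 receptor, at high level. In tumours, many Treg take on an effector state with CD120b, CCR8 and the inhibitory receptor CTLA-4, and some secrete interleukin-10, a cytokine that dampens myeloid and T cells. A gate on CD25 and CD120b selects cells by surface activation markers, whereas a Foxp3 reporter selects them by transcription at the Foxp3 locus.

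Levels are log2 processed signals from which the array's own 75th percentile was subtracted, so that 0 marks that percentile. Between 42.2% and 65.4% of probes were well above background on the VERT-X arrays, and between 49.3% and 53.4% on the FoxP3-EGFP tumour arrays. The number of arrays, 6 and 3, limits the precision, and the median standard error of a difference was 0.23. Scan sessions followed the strains closely: 5 of 6 VERT-X arrays were scanned in the second session, and IL10+ replicate 1 and all FoxP3-EGFP arrays in the first. The only Y-linked gene of the fixed list that was well above background on any tumour array was Uty, on 3 VERT-X arrays, while Xist was so on all 9. Spleen replicate 2 stood apart from the other spleen arrays, with a Ctla4 level of -0.89 against 3.12 and 3.29.

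Both VERT-X replicate 1 arrays, 1 of each fraction, stood apart from the other 4 VERT-X arrays. They lay more than 2-fold away from all 4 in 532 of 14956 features tested, below them in 247 and above them in 285. The other 14 pairs of VERT-X arrays did so in 0 to 194 features. IL10- replicate 1 was scanned in the second session and IL10+ replicate 1 in the first, and what set the pair apart was not tested. Results are given with all 9 arrays, and values without this pair are given beside many of them. Without it every remaining VERT-X array was scanned in the second session and every FoxP3-EGFP array in the first, and session and strain cannot be told apart.

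With all 9 arrays, 51 of 14956 features passed an adjusted p of 0.05 by limma with Benjamini-Hochberg adjustment, which is 0.341% of those tested. Of these, 26 (0.174%) were higher and 25 (0.167%) lower in VERT-X Treg, and 39 differed by 2-fold or more, 23 upward and 16 downward. In 50 of the 51 the 6 VERT-X arrays did not overlap the 3 FoxP3-EGFP arrays, against 13.3% of all features (4.52% with VERT-X higher and 8.83% with VERT-X lower). The exception was Il10. Adjusted p lay between 0.04 and 0.05 for 46 of the 51, so most calls were close to the threshold. At an unadjusted p under 0.05 there were 2798 features (18.7%), 1085 higher (7.25%) and 1713 lower (11.5%), and the median difference over all features was -0.02. Without the replicate 1 pair, limma called 2193 features (14.7%), 948 higher (6.34%) and 1245 lower (8.32%), and these included all 51, each in the same direction. An unadjusted p under 0.05 was then reached by 33.8% of features. With scan session as a block, which compares VERT-X with FoxP3-EGFP within a session through IL10+ replicate 1 alone, 6 features (0.0401%) were called, 2 of them among the 51. All 51 kept their direction in that fit, at a median of 0.866 of their size, and 14.9% of all features had an unadjusted p under 0.05. Here and without the pair the direction was largely set beforehand, as the groups already did not overlap in 50 of the 51. With slide as a block limma called no feature, and 1279 (8.55%) had an unadjusted p under 0.05. The difference of every feature is set against its unadjusted p in the volcano plot.

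**Figure D1:**
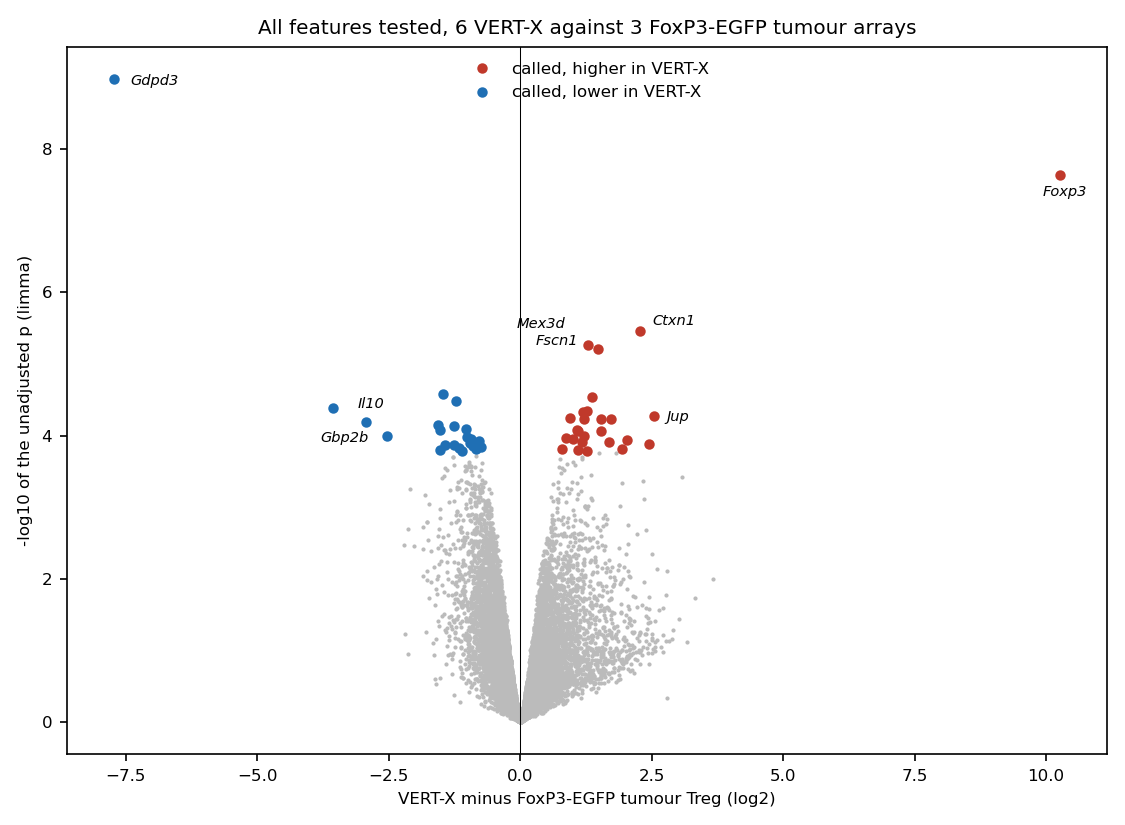
Difference between VERT-X and FoxP3-EGFP tumour Treg (log2, horizontal axis) against -log10 of the unadjusted limma p (vertical axis) for the 14956 features tested, from 6 and 3 arrays. Red points are the 26 features called higher and blue points the 25 called lower; Foxp3 at 10.26 and Gdpd3 at -7.73 lie far outside the rest.

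Foxp3 showed the largest difference of the comparison, and the direction ran against the sort labels. Its 1 probe on the array (mm8, chromosome X, 6751991 to 6752050) read 2.64, 4.47 and 4.11 in IL10+ VERT-X Treg and 3.03, 4.5 and 4.65 in IL10- VERT-X Treg. In tumour Treg sorted by the Foxp3 reporter it read -6.38, -6.53 and -6.17, and none of the 3 arrays had it well above background. The spleen arrays of the same strain, also sorted by the Foxp3 reporter, read -6.09, -5.78 and -6.33. The lowest VERT-X array therefore lay far above the highest FoxP3-EGFP array of either tissue.

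The fitted Foxp3 difference was 10.26 ± 0.48 (SE, adjusted p = 0.000173 by limma). Because the FoxP3-EGFP arrays gave no measured level, the ratio is stated as at least 343-fold higher in VERT-X, the mean of the VERT-X arrays over the lowest signal that counts as above background. The IL10+ fraction was 10.10 above FoxP3-EGFP Treg and the IL10- fraction 10.42, and the fractions differed from each other by -0.32. With session as a block the difference was 8.89 (adjusted p = 0.0104), and without the replicate 1 pair it was 10.80 (adjusted p = 6.69e-06). Foxp3 was also the only one of the 51 called features in which both replicate 1 arrays lay more than 2-fold from the other VERT-X arrays. The labels do not give the position of the reporter cassette in the Foxp3 gene of FoxP3-EGFP mice, so what this probe reads of the reporter allele was not tested.

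Other genes that mark Treg did not follow Foxp3. Ctla4, an inhibitory receptor, read 4.92, 5.33 and 5.12 in IL10+ and 4.84, 5.29 and 5.27 in IL10- VERT-X Treg, and 6.01, 5.42 and 5.54 in FoxP3-EGFP Treg. VERT-X arrays were all below FoxP3-EGFP arrays for this gene, by a difference of -0.53 ± 0.19 (SE) that did not pass the test (adjusted p = 0.201 by limma). Tnfrsf18, which encodes the co-stimulatory receptor GITR, differed by -0.04 ± 0.23 (adjusted p = 0.933), and Ikzf2, which encodes the Treg factor Helios, by -0.58 ± 0.20 (adjusted p = 0.191). Tnfrsf18 lay between 7.27 and 8.23 on all 9 tumour arrays, so both groups carried a high GITR signal. Among the 15 nearest tested neighbours of Foxp3 on chromosome X, up to 10 on each side, none was called with all 9 arrays. Of all features, 0.341% were called. The neighbours differed by -0.99 to 0.40, and at an unadjusted p under 0.05 5 were lower and 0 higher, against 11.5% and 7.25% of all features. Without the replicate 1 pair, 5 of these neighbours were called lower and 1 higher, against 8.32% and 6.34% of all features. The lower ones were Wdr45 (-0.94), an autophagy gene, Gpkow (-0.70), Prickle3 (-0.79), the chloride transporter gene Clcn5 (-0.82) and the pseudogene Smt3h2-ps (-1.25), and the higher one was the transcription factor gene Tfe3 (0.46).

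Il10, the reporter gene of VERT-X mice, differed between the VERT-X fractions more than any other named gene of this comparison. Its probe (mm8, chromosome 1, 132851912 to 132851971) read 3.71, 5.47 and 4.87 in IL10+ Treg, -0.39, 0.47 and 0.07 in IL10- Treg, and 5.74, 5.02 and 5.14 in FoxP3-EGFP tumour Treg. IL10- arrays lay far below all others, and IL10+ arrays overlapped the FoxP3-EGFP arrays, which were sorted without regard to IL-10. The pooled difference was -2.93 ± 0.39 (SE, adjusted p = 0.0482 by limma). The IL10- fraction fell below FoxP3-EGFP Treg by 5.25 (adjusted p = 0.0126), while the IL10+ fraction differed by -0.62 (adjusted p = 0.523). IL10+ exceeded IL10- Treg by 4.63 (adjusted p = 0.0243), a direction that the sort on the Il10 reporter set beforehand. The pooled value takes in the fraction sorted as IL10-, so it is no separate result about the strains. None of 20 tested neighbours of Il10 was called with all arrays, against 0.341% of all features. The neighbours differed by -0.95 to 1.14. At an unadjusted p under 0.05, 1 was higher and 4 were lower, against 7.25% and 11.5% of all features. The higher one, Pfkfb2, was above background on 3 VERT-X and 0 FoxP3-EGFP tumour arrays. It passed the filter through VERT-X alone, so its rise is no support. Without the replicate 1 pair 2 of the 20 were called, both higher, namely Mapkapk2, a p38 pathway kinase gene (0.52), and Ubxn4 (0.53). All features gave 6.34% higher and 8.32% lower in that fit.

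Of the genes behind the surface gate, none except Il10 and Foxp3 passed the test with all 9 arrays. Il2ra, which the VERT-X gate selected through CD25, read 0.41, 1.97 and 1.24 in IL10+, 0.87, 1.94 and 2.08 in IL10-, and 2.03, 1.37 and 1.67 in FoxP3-EGFP Treg. The groups overlapped, with a difference of -0.27 (adjusted p = 0.739), and 3 further probes gave -0.71, -0.34 and -0.78. Tnfrsf1b, selected through CD120b, read 3.45, 4.65 and 4.13 in IL10+, 3.68, 4.33 and 4.19 in IL10-, and 4.38, 4.02 and 4.29 in FoxP3-EGFP Treg. These arrays overlapped too, at -0.16 (adjusted p = 0.782), with 0.68 from a further probe. Thus 2 genes on which only the VERT-X gate was set did not pass the test between the strains, and replicate 1 was the lowest array of its fraction for both.

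None of the lineage genes of the common gate passed the test with all 9 arrays. Ptprc (CD45) differed by -0.43 (adjusted p = 0.388), Itgam (CD11b) by 0.30 (adjusted p = 0.492), Cd3d by -0.34 (adjusted p = 0.514) and Cd3g by -0.79 (adjusted p = 0.118). Cd3g was called lower without the replicate 1 pair, at -0.63 (adjusted p = 0.0461), while Ptprc, Itgam and Cd3d, at -0.21, 0.40 and -0.10, were not. Cd3e read 1.73 and 2.08 on the replicate 1 arrays against 4.80 to 5.87 on the other VERT-X arrays, with 2.62 to 3.16 on the FoxP3-EGFP arrays. Its probe gave 1.32 with all arrays (adjusted p = 0.528) and 2.50 without the replicate 1 pair (adjusted p = 0.00979), whereas the other Cd3e probe gave -0.94, so probes of this gene disagree in direction. Cd4 showed the same split, at -0.17 and 0.25 on the replicate 1 arrays and 2.16 to 2.84 on the others. Its difference was 1.09 (adjusted p = 0.475), and 1.93 without the pair (adjusted p = 0.00932), with 0.13 from the other probe. With session as a block both turned sign, to -1.68 for Cd3e and -1.29 for Cd4. All levels are drawn in the plot of the gate genes by array.

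**Figure D2:**
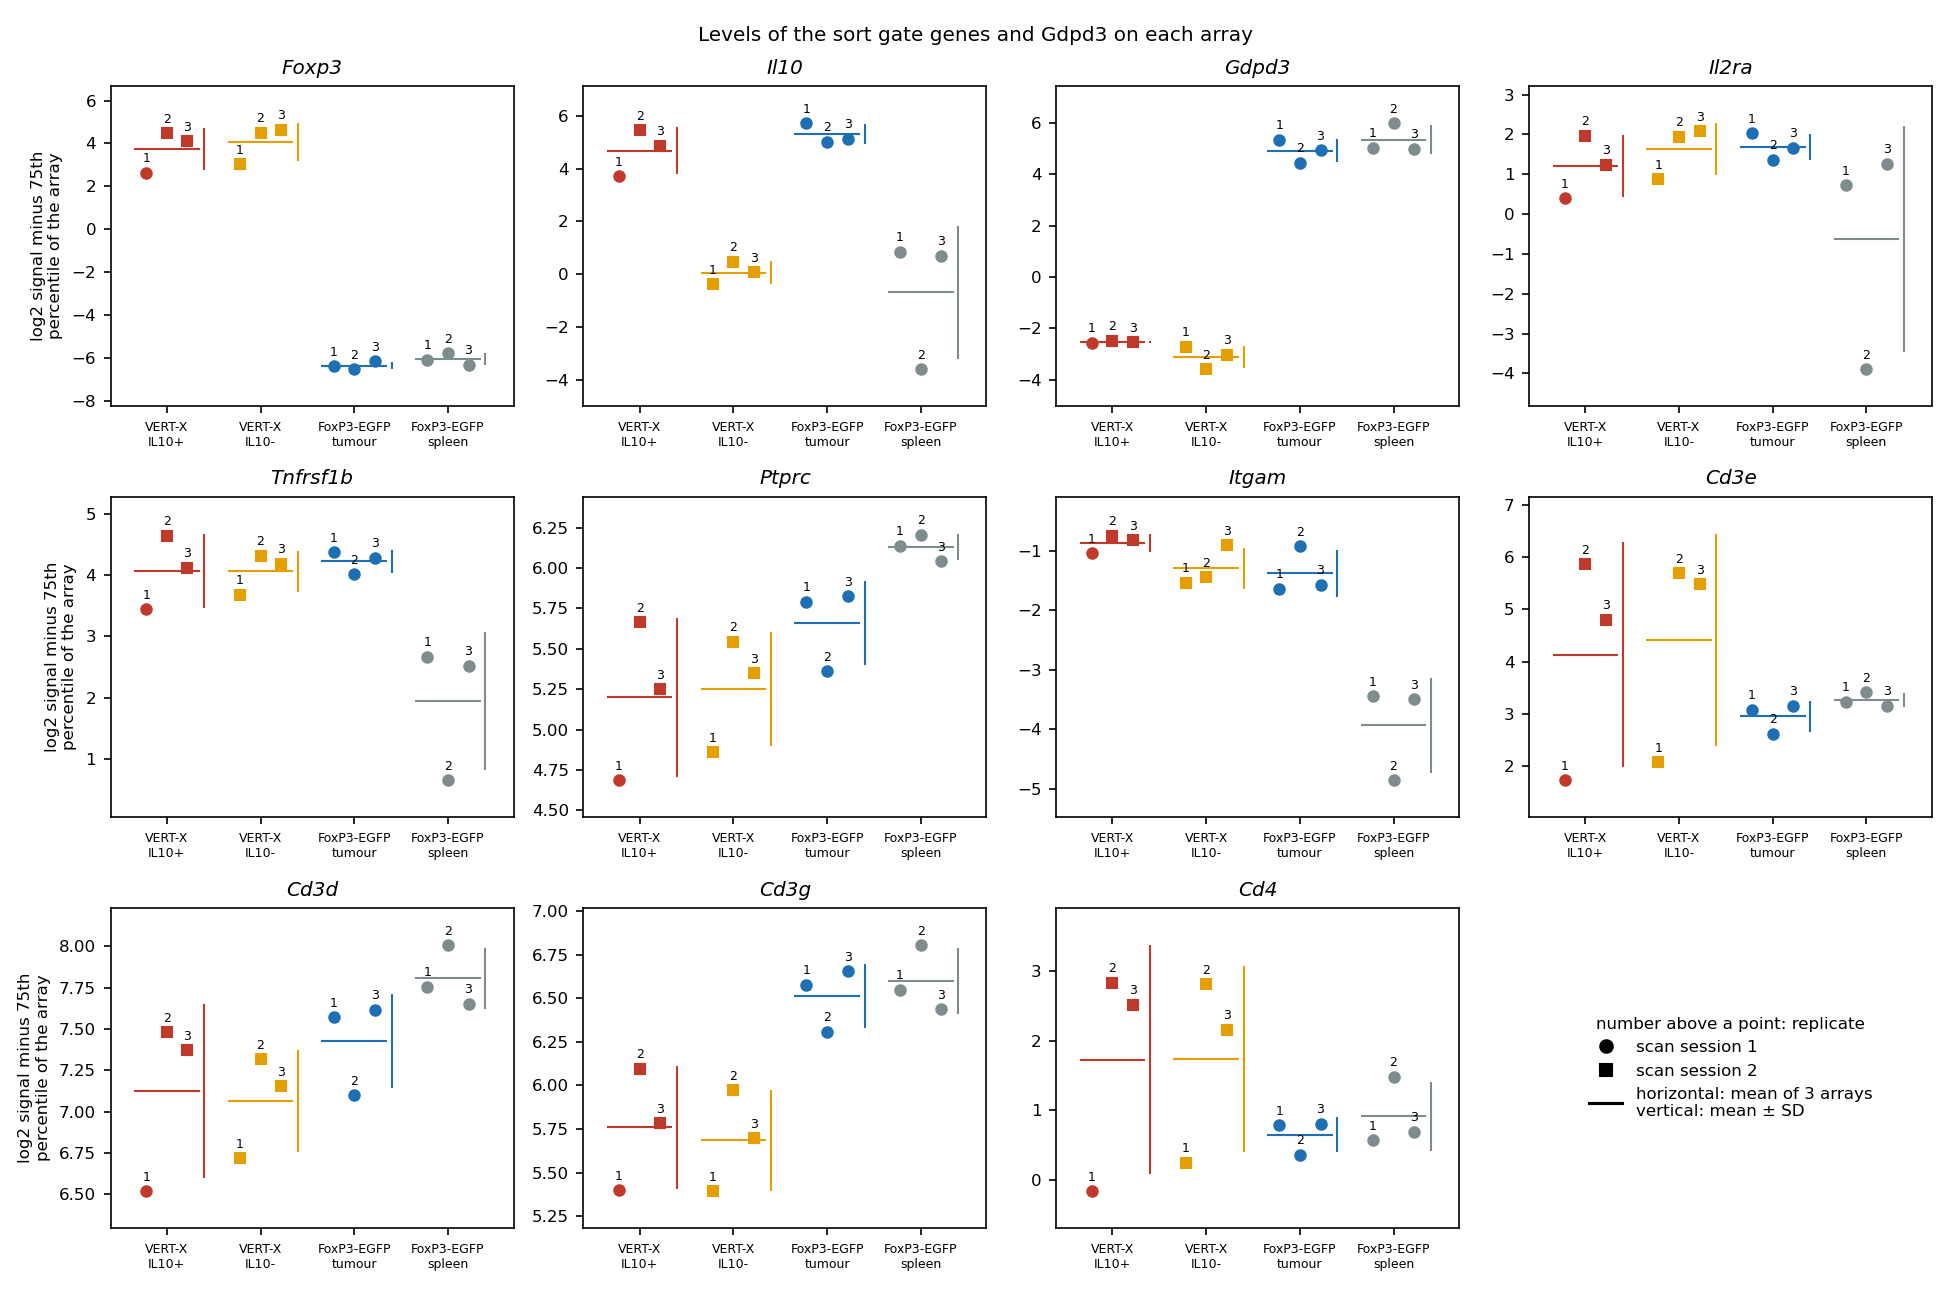
Level of each gene of the sort gate and of Gdpd3 on every array (log2 signal minus the array's 75th percentile), by group, with replicate numbers, scan session by symbol, and the mean of 3 arrays ± SD as lines. Foxp3 is high on all VERT-X arrays and at -6.53 to -5.78 on all FoxP3-EGFP arrays, Gdpd3 shows the reverse, and Cd3e and Cd4 are low on both VERT-X replicate 1 arrays.

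Gdpd3 was the gene with the largest fall. It encodes a lysophospholipase D of the glycerophosphodiester phosphodiesterase family, which releases lysophosphatidic acid. Its probe (mm8, chromosome 7, 126562154 to 126562327) read -2.55, -2.47 and -2.54 in IL10+ and -2.71, -3.59 and -3.03 in IL10- VERT-X Treg, against 5.35, 4.45 and 4.94 in FoxP3-EGFP tumour Treg. The spleen arrays of the FoxP3-EGFP strain read 5.04, 6.00 and 4.99, so the high level was present in both tissues of that strain. All VERT-X arrays lay far below all FoxP3-EGFP arrays.

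Gdpd3 fell by 7.73 ± 0.25 (SE, adjusted p = 1.58e-05 by limma), which is 212-fold, and 5 of 6 VERT-X arrays were still well above background. The falls were 7.43 in the IL10+ and 8.02 in the IL10- fraction. The difference was -7.76 with session as a block (adjusted p = 0.00685) and -7.82 without the replicate 1 pair (adjusted p = 0.00056). None of its 20 nearest tested neighbours on chromosome 7 was called with all arrays, against 0.341% of all features. The neighbours differed by -0.58 to 0.92. At an unadjusted p under 0.05, 3 were higher and 0 lower, against 7.25% and 11.5% of all features. Without the pair 3 were called, all higher: Apobr (1.46), Cln3 (0.81) and Kctd13 (0.74), against 6.34% of all features higher and 8.32% lower. Mapk3, which encodes the kinase ERK1, lies among them at 0.37, and Ypel3 at -0.25. This window was chosen after the value of Gdpd3 was seen. Foxp3 and Gdpd3 were the only genes called in each of the 25 fits counted, which leave out slide as a block and normexp. With normexp, Gdpd3 was called (adjusted p = 0.0206) and Foxp3 was not (adjusted p = 0.149).

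Apart from Foxp3, the 14 largest rises that the naming rule took ranged from 1.21 to 2.55. Fscn1, which encodes the actin-bundling protein fascin, read 2.13, 2.36 and 2.39 in IL10+ and 2.01, 1.74 and 2.02 in IL10- Treg, against 0.40, 0.76 and 0.72 in FoxP3-EGFP tumour Treg. The lowest VERT-X array was above the highest FoxP3-EGFP array, and Fscn1 rose by 1.48 ± 0.14 (SE, adjusted p = 0.0187 by limma). Fgfr1, the fibroblast growth factor receptor, read 0.73, 1.09 and 1.29 in IL10+ and 0.30, 0.32 and 0.76 in IL10- Treg, and -1.49, -0.49 and -0.85 in FoxP3-EGFP Treg. It rose by 1.69 ± 0.25, and its 3 further probes gave 1.69, 2.36 and 2.07, all upward. Dendritic cell markers, which include Fscn1, had a median of 0.17 over 7 of 11 tested. At an unadjusted p under 0.05, 2 were higher and 0 lower, against 7.25% and 11.5% of all features. Their summed level includes Fscn1 itself. It ranged from 2.55 to 3.04 on VERT-X and from 1.78 to 2.08 on FoxP3-EGFP tumour arrays, with no overlap. A sum without Fscn1 was not formed, so this does not show higher levels of the other markers. Clec9a, Siglech and Ccl22 were above background on no tumour array, while Zbtb46, Itgax and Batf3 were so on all 9. The part of dendritic cells in the rise of Fscn1 was not tested.

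Col6a2, a collagen VI chain, read 3.83, 4.64 and 4.70 in IL10+ and 3.68, 4.23 and 4.39 in IL10- Treg, against 1.82, 2.73 and 2.40 in FoxP3-EGFP tumour Treg. It rose by 1.93 ± 0.29 (SE, adjusted p = 0.0482 by limma), and a further probe gave 0.33. Jup, which encodes the junction protein plakoglobin, rose by 2.55 ± 0.33 and was well above background on 1 of 3 FoxP3-EGFP arrays. Palm, which encodes the membrane protein paralemmin, rose by 2.02 ± 0.29. Other rises were seen for Ctxn1 (cortexin, 2.28 ± 0.20, adjusted p = 0.0175) and for Mex3d, an RNA-binding protein gene (1.29 ± 0.12, adjusted p = 0.0187). The transcription factor genes Onecut2 and Tfap2a rose by 1.73 and 1.21, the former with 2.17 from a further probe and well above background on 1 of 3 FoxP3-EGFP arrays. Ttyh2, of the tweety family of anion channels, rose by 1.53 and was well above background on 2 of 3 FoxP3-EGFP arrays. Rises were also called for Rbp2, an intracellular retinol-binding protein gene (1.36), and for Dcakd (1.28). Hid1 was not well above background on any FoxP3-EGFP array and on 3 of 6 VERT-X arrays, and is at least 1.63-fold higher there.

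Klrb1c, which encodes the natural killer receptor NK1.1, was the called gene of the CD8 T and NK cell list. It read -1.75, -2.18 and -1.55 in IL10+ and -2.70, -2.62 and -2.32 in IL10- Treg, and -3.75, -3.25 and -3.35 in FoxP3-EGFP tumour Treg. It rose by 1.26 ± 0.19 (SE, adjusted p = 0.0482 by limma), with 1.62 in the IL10+ and 0.90 in the IL10- fraction. In spleen it was higher, from -1.41 to 0.87. That list had a median of 0.49 over 10 of 12 tested. At an unadjusted p under 0.05, 3 were higher and 0 lower, against 7.25% and 11.5% of all features. Its summed level overlapped between the groups, at 3.12 to 4.24 on VERT-X and 3.57 to 3.74 on FoxP3-EGFP tumour arrays. Gzmk was above background on no tumour array, while Cd8a, Cd8b1 and Prf1 were so on all 9. The part of these cells in the rise of Klrb1c was not tested.

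Among the 26 features called higher, 24 had all 3 spleen arrays below all 6 VERT-X arrays, against 25.4% of all features. The features were called for high VERT-X levels against the strain of these spleens, so the share of all features is no fair reference. Col6a2 read -6.52 to -5.98 in spleen and Fscn1 -6.31 to -5.03. FoxP3-EGFP tumour Treg lay between the spleen arrays and the VERT-X arrays for both genes. Fibroblast markers, which include Col6a2, had a median difference of 0.23 over 16 of 16 members tested, with 1 called. Their summed level ranged from 8.92 to 9.43 on VERT-X and from 8.97 to 9.04 on FoxP3-EGFP tumour arrays. Of 12 epithelial markers, 4 were tested, with a median of -0.46 and none called. Cldn7 was above background on no tumour array, while Epcam, Krt18 and Lgals4 were so on all 9. The part of either cell type in these rises was not tested.

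Apart from Gdpd3, the 14 largest falls that the rule took ranged from -2.53 to -0.90, and all had an adjusted p of 0.0482 by limma. Gbp2b, an interferon-induced guanylate-binding protein gene, read -4.27, -3.92 and -4.64 in IL10+ and -7.15, -6.12 and -5.49 in IL10- Treg, against -2.35, -2.98 and -2.87 in FoxP3-EGFP tumour Treg. It fell by 2.53 ± 0.36 (SE), and only 2 of 6 VERT-X arrays were well above background. Nos1, the neuronal nitric oxide synthase gene, fell by 1.57 ± 0.21, with -0.95 from a further probe. Tnfrsf13c, which encodes the receptor for the survival factor BAFF, read -3.19 to -2.21 on VERT-X and -1.49 to -1.18 on FoxP3-EGFP tumour arrays, and fell by 1.53 ± 0.23.

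Hsp90aa1, the inducible cytosolic HSP90 chaperone, read 5.80, 6.06 and 5.87 in IL10+ and 5.76, 5.82 and 5.90 in IL10- Treg, against 6.80, 7.01 and 6.61 in FoxP3-EGFP tumour Treg. The 6 VERT-X arrays lay within a narrow band below all FoxP3-EGFP arrays, and Hsp90aa1 fell by 0.94 ± 0.13 (SE, adjusted p = 0.0482 by limma). Dgkd, a diacylglycerol kinase gene, fell by 1.10 ± 0.17, and its further probe gave -0.69. Nckap1l, which encodes the haematopoietic WAVE complex subunit HEM1, fell by 0.90, Gmfg, an actin-branch regulator of leukocytes, by 0.92, and Camk2g, a calcium/calmodulin-dependent kinase gene, by 0.90. Mfsd2a, a lysophosphatidylcholine transporter gene, fell by 1.02, and Gramd1a, which encodes a cholesterol transporter at membrane contacts, by 0.94. Rasl11b, Frmd7, Dcun1d4 and Fam169b fell by 1.26, 1.52, 1.16 and 1.22. The clone 1700121C10Rik, outside the naming rule and picked after its value was seen, fell by 3.56.

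Of the 25 features called lower, 20 had all spleen arrays above all VERT-X arrays, against 25.6% of all features. Here too the calls chose low VERT-X levels against the same strain, so that share is no fair reference. Tnfrsf13c read 1.38 to 2.02 in spleen, and Nckap1l 3.08 to 3.19. For Mfsd2a the order was different, as the spleen arrays at -2.15 to -1.16 lay below every tumour array. The levels of all 28 genes on each array are drawn relative to FoxP3-EGFP Treg in the plot of called genes.

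**Figure D3:**
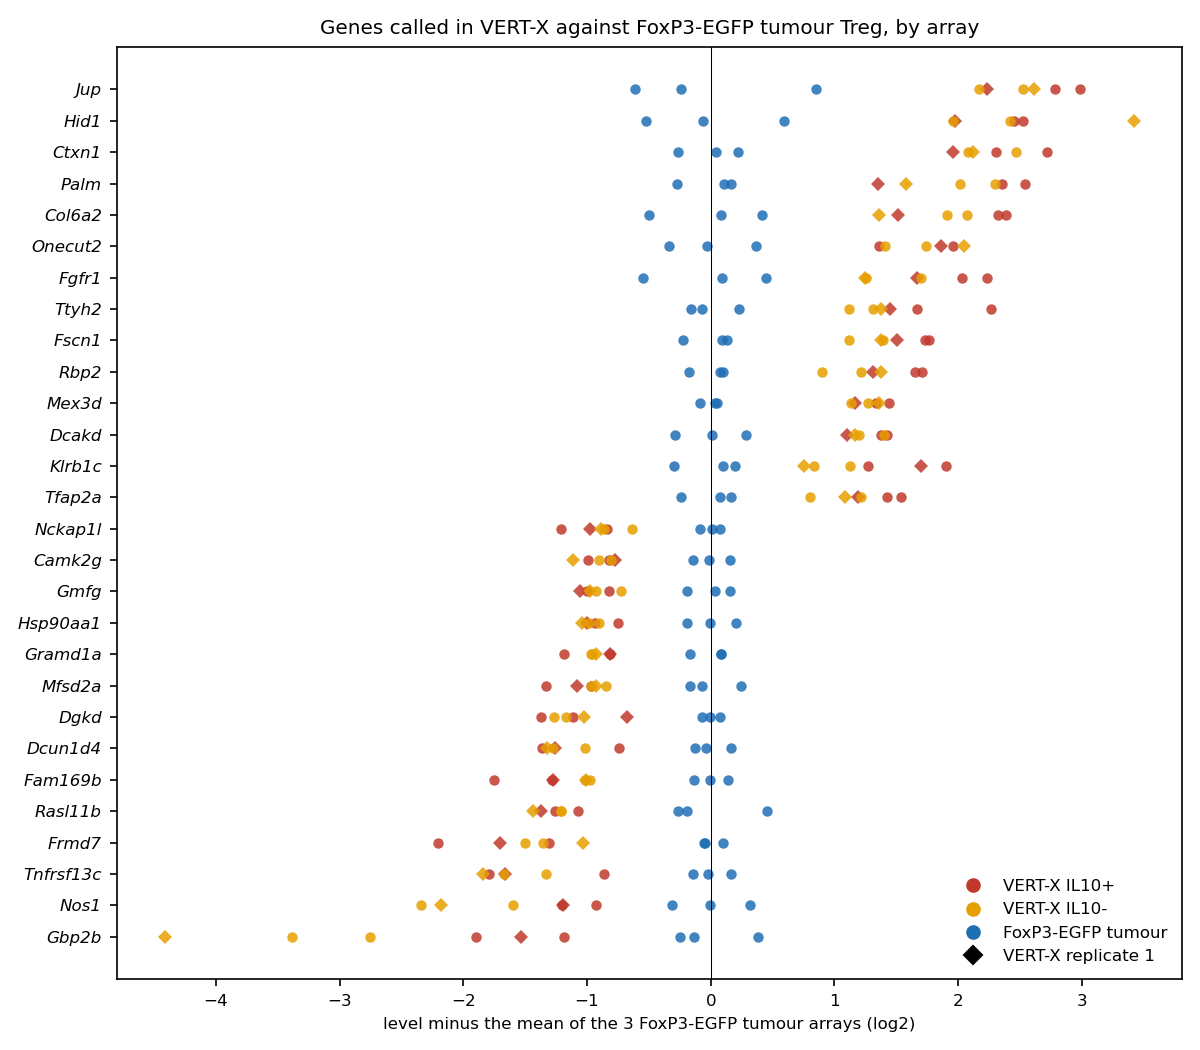
Level of 28 called genes on each of the 9 tumour arrays minus the mean of the 3 FoxP3-EGFP arrays (log2, horizontal axis), in order of the difference; colours give the group and diamonds the VERT-X replicate 1 arrays. VERT-X and FoxP3-EGFP points do not overlap for any of these genes, which the naming rule required, and the replicate 1 arrays fall among the other VERT-X arrays for most of them.

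With all 9 arrays, 6 members of the lists fixed for other cell types and for T cell programmes were called: Foxp3, Il10, Hsp90aa1, Fscn1, Klrb1c and Col6a2. Il10 is the gene on whose reporter the VERT-X fractions were sorted. Calls with all 9 arrays are to be read against 0.174% of all features higher and 0.167% lower. At such shares lists of these lengths would seldom hold a called member, so a list without one says little about its genes. Counts of list members at an unadjusted p under 0.05 are given below and are to be read against 7.25% of all features higher and 11.5% lower, and list medians against -0.02. Counts of members called without the replicate 1 pair are to be read against 6.34% higher and 8.32% lower, and list medians without it against -0.05. In bulk samples, fewer cells of a type and less RNA per cell cannot be told apart.

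The Treg programmes had medians near 0 with all arrays, lower ones with session as a block or normexp, and higher ones without the replicate 1 pair. Of 20 Treg identity genes tested, 1 (Foxp3) was called higher and none lower, with a median of -0.04. At an unadjusted p under 0.05, 4 of the 20 were lower and 2 higher. Of 22 effector Treg genes none was called, with a median of -0.15, and Ccr2, a chemokine receptor gene, was at -1.40 (adjusted p = 0.131 by limma). Of the 22, 4 were lower and 0 higher at an unadjusted p under 0.05. Of 15 suppressive mediators, 1 (Il10) fell, and the median was -0.15. With session as a block the medians of the 3 lists were -0.75, -0.56 and -0.89, with normexp background correction -0.41, -0.55 and -0.56, and without the replicate 1 pair 0.15, 0.071 and 0.19. Among the suppressive mediators, Nt5e, which encodes the adenosine-producing enzyme CD73, was at -0.84 (adjusted p = 0.102). Gzma, a cytotoxic granule protease gene, was at 1.13 (adjusted p = 0.0903) and Havcr2, which encodes the checkpoint receptor TIM-3, at -0.72 (adjusted p = 0.114). A further Havcr2 probe gave 0.17, so probes of Havcr2 disagree in direction.

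Without the pair, limma called 3 of 22 effector genes, Ccr8 (2.00) and Tnfrsf8, which encodes CD30 (1.78), higher and Ccr2 (-1.52, adjusted p = 0.0427) lower. It called 4 of 15 suppressive mediators, Gzma (1.07, adjusted p = 0.0488) and Tgfb1 higher and Havcr2 (-0.66, adjusted p = 0.0346) and Il10 lower. Foxp3 was still the 1 Treg identity gene called, while Ctla4 was at -0.41 (adjusted p = 0.157) and Ikzf2 at -0.45 (adjusted p = 0.151). None of 20 resting lymphoid T cell genes was called with all arrays, with a median of 0.10. Actn1, which encodes alpha-actinin, was at 2.35 there (adjusted p = 0.0746), and without the pair at 2.82 (adjusted p = 0.00416). Then 3 of the 20 were called, Actn1 higher and Id3 and Txk lower.

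None of 17 Th1 genes was called with all arrays, 7 had an unadjusted p under 0.05 with lower values, and the list median was -0.62. Ifng, the signature cytokine of Th1 cells, read -0.15, 1.78 and 1.53 in IL10+ and 0.33, 1.66 and 1.72 in IL10- Treg, against 3.59, 3.16 and 2.77 in FoxP3-EGFP tumour Treg. No VERT-X array reached the FoxP3-EGFP range, and the replicate 1 arrays were the lowest. The difference was -2.03 ± 0.50 (SE, adjusted p = 0.112 by limma), and without the replicate 1 pair it was -1.50 (adjusted p = 0.015).

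The chemokine genes Ccl5 and Ccl3, whose products attract T cells and myeloid cells, also lay lower in VERT-X. Ccl5 read 6.28, 7.20 and 7.32 in IL10+ and 5.79, 6.49 and 6.05 in IL10- Treg, against 8.01, 7.97 and 8.07 in FoxP3-EGFP Treg. Its difference of -1.50 ± 0.26 (SE) had an adjusted p of 0.0651 by limma, and -1.25 without the replicate 1 pair had one of 0.00879. Ccl3 was at -1.70 (adjusted p = 0.117), and -1.30 without the pair (adjusted p = 0.0142). Without the pair, 5 of the 17 Th1 genes were called, 3 lower (Ccl3, Ccl5 and Ifng) and 2 higher (Il12rb2 and Il18rap, receptor chains for interleukin-12 and interleukin-18). All features gave 8.32% lower and 6.34% higher in that fit.

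Interferon-stimulated genes had a median of -0.34 over 33 tested, with 8 lower and 0 higher at an unadjusted p under 0.05, and none called. Ifit1, an antiviral RNA-binding protein gene, was at -1.10 (adjusted p = 0.112 by limma) and Parp14 at -0.82 (adjusted p = 0.102), and neither overlapped between the groups. Further Parp14 probes gave 0.63 and -0.32, so probes of Parp14 disagree in direction. The list median by array was -0.97 and -0.95 on the replicate 1 arrays and between -0.28 and 0.00 on the other 4 VERT-X arrays, and it was -0.14 without the pair. It was -1.09 with session as a block and -0.60 with normexp. Without the pair 3 of the 33 were called, 1 higher (Irf7) and 2 lower, Ifit1 at -0.96 (adjusted p = 0.048) and Parp14 at -0.67 (adjusted p = 0.0298).

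Checkpoint and co-stimulatory receptors had a median of -0.33, with 5 of 16 lower at an unadjusted p under 0.05 and none called. Tnfrsf25, which encodes the co-stimulatory receptor DR3, and the inhibitory receptor gene Btla belong to it. Tnfrsf25 was at 0.41, 0.91 and 0.49 in IL10+ Treg, at 2.64 ± 0.31 (SD, n = 3) in IL10- Treg, and at 2.51, 2.03 and 2.51 in FoxP3-EGFP Treg. The pooled value of -0.73 (adjusted p = 0.137) thus joins an IL10+ fraction at -1.75 and an IL10- fraction at 0.29. With the replicate 1 pair left out, Havcr2 was the 1 of 16 called, lower, while Tnfrsf25 was at -0.64 (adjusted p = 0.0963) and Btla at -0.41 (adjusted p = 0.0572).

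Genes of the T cell receptor complex and its proximal signalling had a median of -0.35 over 24 tested, with 22 of 24 below 0 and none called. Trat1, an adaptor that stabilises the receptor at the surface, was at -1.20 (adjusted p = 0.0678 by limma) and Ptpn22, a phosphatase gene that limits receptor signalling, at -0.83 (adjusted p = 0.079). The list median was -1.12 and -0.80 on the replicate 1 arrays and from -0.32 to 0.03 on the other VERT-X arrays, and it was -0.06 without the pair. Then 5 of the 24 were called lower, Trat1 (-1.15) and Ptpn22 (-0.71) among them, and 2 higher, Cd3e and Cd4. MHC class II and antigen presentation genes had a median of -0.23, which was 0.00 without the pair. Of their 16 members none was called, and B2m, the light chain of MHC class I, was at -0.62 (adjusted p = 0.0886). Without the pair B2m was called lower, at -0.57 (adjusted p = 0.0248), and the peptide transporter gene Tap2 was called higher.

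Heat shock and chaperone genes lay lower as a list: all 16 tested were below 0, with a median of -0.49, and in 7 the groups did not overlap, against 8.83% of all features with VERT-X lower. Hsp90aa1 was the 1 member called. Dnajb1, an HSP70 co-chaperone gene, was at -1.12 (adjusted p = 0.102 by limma) and Hspe1, the mitochondrial chaperonin subunit gene, at -0.78 (adjusted p = 0.102). The inducible HSP70 gene Hspa1a read 4.83 and 4.65 on the IL10+ and IL10- replicate 1 arrays, 7.77 to 7.90 on the other VERT-X arrays and 7.98 to 8.36 on the FoxP3-EGFP tumour arrays. Immediate early genes, which respond within minutes to stimulation and to tissue handling, had a median of -0.36, with 7 of 23 lower and 1 higher at an unadjusted p under 0.05. Fosl2, an AP-1 subunit gene, was at -1.02 (adjusted p = 0.0678), but a further probe gave 1.09, so its probes disagree in direction. Without the replicate 1 pair the medians of the heat shock and immediate early lists were -0.33 and -0.17, and 2 of 16 (Hsp90aa1 and Hspe1) and 3 of 23 (Fosl2, Egr3 and Btg2) were called, all lower. Without FoxP3-EGFP replicate 1 the median of the immediate early list was -0.03.

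Glycolysis and hypoxia genes had a median of 0.20, with 6 of 25 higher at an unadjusted p under 0.05 and none lower, and none called. Pfkl, the liver-type phosphofructokinase gene, was at 0.90 (adjusted p = 0.143 by limma), Vegfa at 0.85 (adjusted p = 0.174) and Bnip3 at 0.59 (adjusted p = 0.111). Without the replicate 1 pair the list median was 0.03, with 5 called higher and 1 lower, against 6.34% and 8.32% of all features. Pfkl, Vegfa and Bnip3 were among the 5, at 1.15, 0.57 and 0.58, and with normexp the list median was -0.16. Oxidative phosphorylation genes had a median of -0.16, with 6 of 27 lower at an unadjusted p under 0.05 and none higher, and it was 0.05 with session as a block. The respiratory chain genes Uqcrfs1 and Cox6c were at -0.55 (adjusted p = 0.149) and -0.90 (adjusted p = 0.184). Without the pair, 5 of the 27 were called, all lower, with Uqcrfs1 at -0.69 and Cox6c at -1.18 among them.

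Cell cycle genes had a median of -0.01, with 6 of 32 higher at an unadjusted p under 0.05, and list medians of 0.24 and 0.39 on the replicate 1 arrays against -0.21 to 0.02 on the other 4. Leaving out the pair, 2 of the 32 were called higher and 3 lower. Ribosomal protein genes had a median of -0.13 and cholesterol synthesis genes one of -0.08, with no member called. Without the pair 1 of 30 ribosomal protein genes (Rps6) and 4 of 23 cholesterol synthesis genes (Idi1, Fdps, Tm7sf2 and Stard4) were called, all lower.

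Chemokine and homing receptors had a median of -0.09 over 24 tested with none called, and members in which the replicate 1 arrays stood apart. Ccr8, a chemokine receptor typical of tumour Treg, read 1.26 and 2.15 on the IL10+ and IL10- replicate 1 arrays and 3.73 to 4.51 on the other VERT-X arrays, against 1.87 to 2.28 in FoxP3-EGFP Treg. It differed by 1.22 with all arrays (adjusted p = 0.376 by limma) and by 2.00 without the replicate 1 pair (adjusted p = 0.00499). Tgfb1, which encodes the suppressive cytokine TGF-beta 1, showed the same order of arrays, at 3.30 and 3.73 on the replicate 1 arrays, 5.62 to 6.01 on the others and 3.73 to 4.10 in FoxP3-EGFP Treg. Its difference was 1.07 (adjusted p = 0.415), and 1.82 without the pair (adjusted p = 0.00416). For Ccr8 and Tgfb1 the replicate 1 arrays thus lay near the FoxP3-EGFP arrays, and the cause was not tested. Cxcr6, a receptor of tissue-resident T cells, was at -0.99 (adjusted p = 0.0872), with -0.35 in the IL10+ and -1.64 in the IL10- fraction. Without the pair Cxcr6 was called lower, at -0.83 (adjusted p = 0.031), and 6 of the 24 members were called in all, 4 higher and 2 lower.

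Of the markers of other cell types, 3 were called with all 9 arrays, namely Fscn1, Klrb1c and Col6a2, all higher, against 0.174% of all features. Macrophage and monocyte markers had a median of 0.22 over 16 of 17 tested, none called, and summed levels from 8.96 to 10.01 on VERT-X and 8.93 to 9.70 on FoxP3-EGFP tumour arrays. Apoe, an abundant macrophage transcript, was at 0.47 (adjusted p = 0.456 by limma). Cd163 was above background on no tumour array, while the 16 members tested were so on all 9. With normexp the macrophage median was -0.23. Neutrophil markers had a median of 0.02 over 7 of 11 tested, and summed levels of 3.67 to 4.01 on VERT-X and 3.06 to 3.60 on FoxP3-EGFP arrays, which did not overlap. Yet 4 members were higher and 3 lower, and no single member was without overlap. Only Mmp9 (0.76) had an unadjusted p under 0.05, so the sum does not show a rise of the list. Cxcr2 was above background on 4 VERT-X and 0 FoxP3-EGFP arrays. Of 11 B cell markers, 3 were tested. Cd79a was above background on no tumour array, while Cd79b was so on all 9. Fibroblast marker medians were 1.52 and 1.18 on the IL10+ and IL10- replicate 1 arrays and from -0.24 to 0.51 on the other VERT-X arrays. The fibroblast list median was 0.23 with all arrays, -0.20 without the replicate 1 pair and 1.67 with session as a block. The endothelial median was 2.22 on IL10+ replicate 3 alone, the array with the dimmest signal of the 9. Haemoglobin beta (Hbb-bt) was at 3.32 ± 1.13 (SE, adjusted p = 0.189), with 2.21 to 5.70 on VERT-X and -1.88 to 2.90 on FoxP3-EGFP tumour arrays. The part of these cells in the differences above was not tested. List medians by array are drawn in the plot of gene lists.

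**Figure D4:**
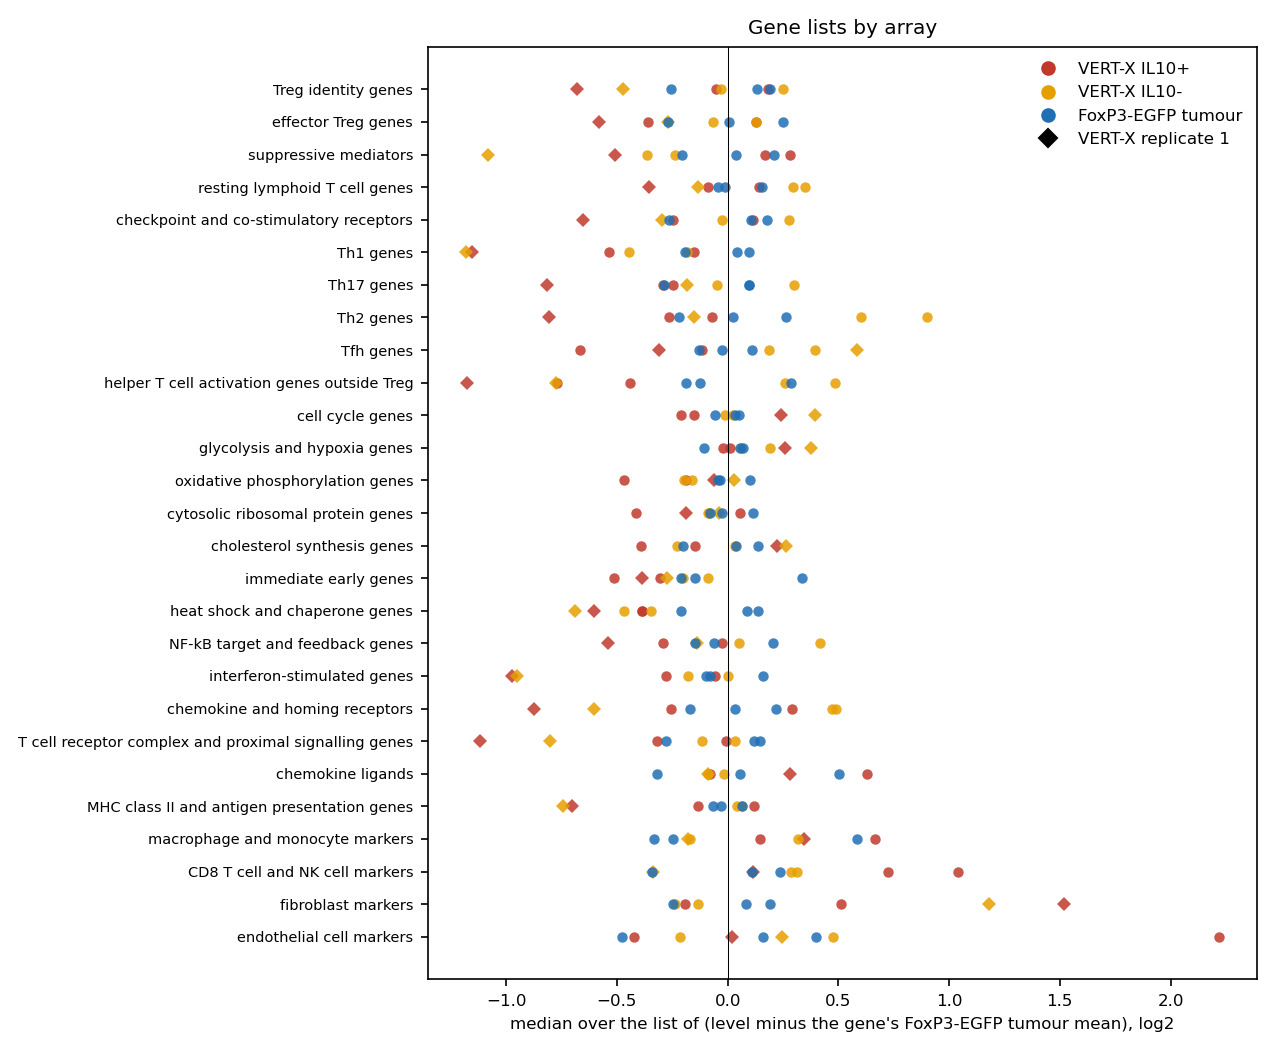
Median over each gene list of the level minus the gene's FoxP3-EGFP tumour mean (log2, horizontal axis), 1 point for each of the 9 tumour arrays, with VERT-X replicate 1 arrays as diamonds. The diamonds lie to the left for Th1 (-1.18 and -1.16), interferon-stimulated and T cell receptor genes and to the right for fibroblast markers, while IL10+ replicate 3 lies at 2.22 for endothelial markers.

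Taken fraction by fraction, the comparison with FoxP3-EGFP Treg called 5 features (0.0334%) for IL10+ Treg and 4 (0.0267%) for IL10- Treg by limma. Both use the same 3 FoxP3-EGFP arrays, so their values are given side by side without a measure of likeness. Between the fractions themselves 17 features (0.114%) were called, 2 higher (0.0134%) and 15 lower (0.1%) in IL10+ Treg, and Il10 was the only one of the 51 features of the pooled comparison among them. Jup differed from FoxP3-EGFP Treg by 2.67 in IL10+ and 2.43 in IL10- Treg, and Hsp90aa1 by -0.90 and -0.98. Gbp2b was well above background on 2 of 3 IL10+ arrays and on 0 of 3 IL10- arrays, so its level in IL10- Treg has only a bound, at least 2.94-fold below FoxP3-EGFP Treg.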

How the data were processed

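Total RNA of sorted Treg was measured on 12 one-colour arrays, 3 per group, of which the 9 tumour arrays entered the main fit. Per the file headers, the deposited intensity was made with Agilent Feature Extraction 9.5.3.1, is background-subtracted and corrected within an array, and has probes annotated on mm8. The labels name biotin-labelled cRNA, whereas the headers show a single-channel scan, which was not settled. The deposited value table holds log10 values with no stated normalization, with column medians of 1.33 and r of 0.995 to 1.00 with log10 signal, and served as an alternative.

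Control spots were left out, and 43379 spots gave 41174 probes. RefSeq (GRCm38.p6, names only) gave 23483 probes a name through their accession, 6678 through a symbol and 2887 through a synonym, while 1226 kept that of the file and 6900 had none. A gene was represented by its brightest probe, kept if well above background on at least 3 of the 9 arrays, which left 14956 features, 13155 with a gene name.

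The level was log2 intensity minus the array's 75th percentile. The means of the 3 tumour groups were fitted with limma 3.58.1 (lmFit, eBayes, two-sided) in R 4.3.3, with Benjamini-Hochberg adjustment over all features. The contrast was the mean of both VERT-X group means minus the FoxP3-EGFP mean. The steps were tested on simulated data. Figures used matplotlib 3.10.9.

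Named genes were those of the gate, the top 15 called genes in each direction that have a symbol and arrays that do not overlap, the 3 smallest p of each programme list, the 2 brightest of each cell type list, and called locus genes. Only those that a result turns on are printed, with Treg markers added. Further genes named as called without the VERT-X replicate 1 arrays lie outside this rule and were chosen after their values were seen. Members, lists and tests were chosen with earlier results of these data known. Alternatives covered background correction, scaling, probe choice, filter, prior, arrays in the fit, and blocks for session, slide and replicate number. Probe sequences were not used here.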

Additional observations from a re-analysis of the deposited data

Results flagged for a closer look

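The median of the endothelial markers was 2.22 on IL10+ replicate 3, relative to the FoxP3-EGFP tumour mean, and that array lay far from the other 5 VERT-X arrays, with a gap of 0.66 of the whole range. Its 75th percentile signal was 92.3, against 209 to 606 on the other VERT-X and 367 to 471 on the FoxP3-EGFP tumour arrays. What this dim signal adds to the endothelial median was not tested. No other such case was found among 46 genes and 38 lists examined, where chance picks out about 1 in 20.

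The effect against FoxP3-EGFP Treg differed between the VERT-X fractions for 3 named genes by limma's test of IL10+ against IL10- Treg. Il10 was higher in IL10+ Treg by 4.63 (adjusted p = 0.0243, higher in 3 of 3 IL10+ arrays). The fractions were sorted on the Il10 reporter, so this difference was set beforehand and is no finding. Tnfrsf25 differed by -2.04 (adjusted p = 0.0321) and Btla by -1.85 (adjusted p = 0.0236), each lower in 3 of 3 IL10+ arrays.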

How the results depend on the processing

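Over 26 alternatives, none of 35 results for called named genes turned sign, but 18 alternatives left under 6 of them called. The alternatives refit the same arrays, so kept signs are no separate support. The pooled count of 51 became 178 with all 12 arrays, 95 with only the arrays compared, 119 with a trended robust prior and 96 with a filter on every array of a group. It became 12 with the mean of probes, 5 with median scaling, 5 with quantile scaling, 7 with the authors' value table, 2 with no filter, 1 with normexp and 3 with fractions of a number averaged. It was 6 and 2 with session as a fixed and as a random block, 0 and 5 with slide so (1279 unadjusted for 0). Leaving out 1 array gave 2 to 311, the highest without IL10+ replicate 1. Without both VERT-X replicate 1 arrays, chosen after seeing the data as were the random blocks, it was 2193. The cause was not tested. Il10 ranged from -4.38 to -2.58 and stayed called in 4 of 26, with an adjusted p of 0.0072 to 0.514.

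For IL10+ Treg the count of 5 became 31 with all arrays, 30 with the trended prior, 40 with the stricter filter, 11 with quantile scaling, 8 with the value table, 8 with session as a block, 2 with session as a random block, 2 with no filter, 2 with only the arrays compared, 0 with normexp (1714 unadjusted) and 0 with slide (1286). Leaving out 1 array gave 2 to 16, and leaving out the pair 1192. For IL10- Treg the count of 4 became 23, 37, 10, 7 and 7 with the first 5 of these, 2 with normexp, 0 with slide (1053), 2 to 31 without 1 array and 866 without the pair. For IL10+ against IL10- Treg the count of 17 by limma became 8 with all arrays, 0 with no filter (541 unadjusted), 0 with normexp (2593), 2 with session, 0 with slide (554), 11 with slide as a random block, 0 to 11 without 1 array and 5 without the pair.

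Replicate numbers paired the VERT-X fractions in part. Deviations of IL10+ and IL10- arrays of a number correlated at 0.459 for replicate 1, 0.448 for replicate 2 and -0.258 for replicate 3. Pairs of IL10+ and IL10- arrays of different numbers ran from -0.602 to 0.314. The main fit treats all VERT-X arrays as independent, which may not hold for replicates 1 and 2. With fractions of a number averaged, 3 features were called. Deviations of VERT-X and FoxP3-EGFP arrays of a number correlated at -0.259 to 0.017. The replicate block gave 4 calls in place of 51, 2 for IL10+, 2 for IL10- and 0 (701 unadjusted) between the fractions.

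Uncalled genes that turned sign were these. With session as a block Cd3e was at -1.68, Cd4 at -1.29, Cox6c at 0.11 and Rps6 at 0.021. With slide as a block Cd3e was at -1.84, Cd4 at -1.29, Cox6c at 0.027, Uqcrc2 at 0.034, Rps6 at 0.20 and Itgam at -0.031. With session as a random block Cd3e was at -0.06 and Cd4 at -0.006. With the mean of probes Itgam was at -0.048, Tnfrsf1b at 0.26 and Fosl2 at 0.032. With normexp Btla was at 0.14, Ccr6 at 0.041 and Egr3 at 0.19. Tnfrsf18 was at 0.048 with quantile scaling, 0.078 with the value table, 0.13 without the pair and -0.21 to 0.08 without 1 array. Without the pair Il2ra was at 0.12 and Tnfrsf1b at 0.093. No filter moved the median of all features to 0.28. Signal near background limits Foxp3, Hid1, Gbp2b, Il13, Onecut2, Jup and Egr3.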

Other observations

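Of the remaining T helper lists, none had a called member with all 9 arrays. Medians were -0.34 over 12 Th17 genes, -0.07 over 10 Th2 genes and -0.05 over 8 Tfh genes. For 13 genes listed for helper T cell activation outside Treg, but above background in these sorted Treg, the median was -0.33. Il13, a type 2 cytokine gene, was well above background on 4 of 6 VERT-X and 0 of 3 FoxP3-EGFP arrays, which puts it at least 2.87-fold higher in VERT-X, a difference that did not pass the test (adjusted p = 0.103 by limma). NF-kB targets had a median of -0.05 over 16 genes and chemokine ligands one of 0.28 over 23, with none called. Without the VERT-X replicate 1 pair, where 6.34% of all features were called higher and 8.32% lower, limma called Ahr lower among Th17 genes, Ccr8 higher among Th2 genes, and Angptl2 higher and Slamf6 lower among Tfh genes. It called Ifng and Dgka lower among helper activation genes, Nfkb2 and Relb higher and Nfkbie lower among NF-kB targets, and Ccl3, Ccl5 and Cxcl10 lower among chemokine ligands.

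Mast cell markers had a median of -0.92 over 8 tested, with none called with all arrays. It was 0.94 with session as a block and -1.58 without the VERT-X replicate 1 pair, where Cpa3, a mast cell carboxypeptidase gene, was called lower at -3.13 (adjusted p = 0.0427). The mast cell protease genes Cma1 and Mcpt4 were at -1.12 and -0.93. The erythroid and platelet median was 2.26 over 4 tested of 11. Alas2, 1 of the 4, was above background on 3 VERT-X and 0 FoxP3-EGFP tumour arrays, and so passed the filter through VERT-X alone.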
